A study of Mus musculus with 96 samples.

Results

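The genes described here are 9 mouse genes whose loss or mutation causes cystic kidney disease in people or mice: Pkd1, Pkd2, Pkhd1, Bicc1, Cys1, Glis2, Glis3, Invs and Ift88. They were taken by gene symbol from a table of 54532 genes, each symbol matched 1 row, and all 9 passed the filter on low values. The table holds transcript levels from kidneys of male C57BL/6 mice aged 6 to 8 weeks, with no treatment or altered genotype among the groups. Glomeruli and 14 tubule segments were microdissected, in 93 samples. The mouse within a segment was the replicate, which gave 53 combinations of a mouse and a segment, and the labels do not say whether a mouse number used in 2 segments is the same animal. The proximal tubule was taken as PTS1 (first convoluted part), PTS2 (cortical straight part) and PTS3 (last straight part). Thin limbs were DTL1 (descending, short loops), DTL2 and DTL3 (descending, long loops, in outer and inner medulla) and ATL (ascending), and thick ascending limbs were MTAL in the medulla and CTAL in the cortex. Beyond them lay DCT, the distal convolution, CNT, which connects it to the duct, and the collecting duct, taken as CCD in the cortex, OMCD in the outer medulla and IMCD in the inner medulla. PTS2, CTAL and CCD had 5 mice each, ATL and OMCD had 4, and the other 10 groups had 3. Levels are in TPM, a transcript abundance scaled to transcript length and to the library total, so that levels of different genes can be set side by side. The sequencing depth behind them is unknown.

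Most proteins of cystic kidney disease work at the primary cilium, the single antenna that tubule cells extend into the lumen. Polycystin-1 and polycystin-2 form a receptor and channel complex there, fibrocystin and cystin are further ciliary proteins, inversin marks a proximal compartment of the cilium, and intraflagellar transport builds the cilium itself. Glis2 and Glis3 are zinc finger transcription factors, and Bicc1 is an RNA-binding protein. Cysts can arise from any segment in dominant polycystic disease, mainly from collecting ducts in recessive polycystic disease, and near the border of cortex and medulla in nephronophthisis.

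The samples carried their segments' markers: Podxl and Wt1, which mark podocytes, measured 2058 to 2948 and 153 to 193 TPM in glomeruli, the proximal tubule genes 11800 to 83447 TPM in PTS1 to PTS3, and the collecting duct genes 21733 to 56591 TPM in CCD, OMCD and IMCD. Some groups also held RNA that their labels do not name. Of 1740 odorant and vomeronasal receptor genes, pseudogenes included, which kidney cells are expected to keep silent, a median of 860 reached 1 TPM in DTL1, 623 in glomeruli, 484 in DTL3, 309 in DTL2 and 99.5 in OMCD, against 0 to 24 in the remaining groups other than ATL. The ATL mice split into mouse 2 and mouse 3, with 29 and 17 such genes, and mouse 4 and mouse 6, with 576 and 659. The endothelial genes Pecam1, Kdr, Cdh5, Emcn and Plvap summed to 2764 to 3652 TPM in DTL1, 2993 to 3058 in glomeruli, 1018 to 1871 in DTL2, 633 to 1589 in DTL3, 364 to 486 in OMCD, 192 to 433 in CTAL, 154 to 384 in DCT, 152 to 327 in MTAL, 254 to 283 in CNT, 149 to 239 in ATL, 123 to 211 in CCD and 21 to 302 in IMCD, against 27 to 132 in the proximal tubule. Stromal genes summed to 455 to 642 TPM in glomeruli and, among tubule segments, to at most 79.5 TPM, in CNT. DTL1 held 1046 to 4222 TPM of the proximal tubule genes, and DTL3 held 1483 to 1865 TPM of the collecting duct genes. These values move with the groups in the comparisons below, and their part in the differences was not tested. In such bulk samples, fewer cells of a type and less RNA per cell cannot be told apart.

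The median of all 33793 tested genes was itself shifted between groups, by 0.84 log2 units in thin limbs against proximal tubule, 0.69 in glomerulus against tubule segments, 1.33 in DTL1 against PTS3, 0.26 in collecting duct against proximal tubule and -0.32 in IMCD against OMCD. For called genes in these 5 comparisons, the difference after this median is taken off is also given. The median depended on the filter on low values. At 5 TPM instead of 1 TPM it was 1.20 in thin limbs, 1.60 in DTL1 and 0.64 in collecting duct. In glomerulus it was then 0.68 and in IMCD -0.51. The differences given below use the filter at 1 TPM. A gene was called when limma's adjusted p was under 0.05 and its difference in log2(TPM + 1) was at least 1, and 81.4% of the genes called in collecting duct against proximal tubule were higher in collecting duct. That share was 49.3% after rescaling by median ratios and 49.7% after quantile normalization. For glomerulus against tubule segments the 3 shares were 88.9%, 73.0% and 48.4%, for thin limbs 91.2%, 68.4% and 47.9%, for thick limbs 70.2%, 49.6% and 52.6%, for DCT and CNT 75.0%, 51.5% and 53.5%, for collecting duct against thick limbs 69.7%, 48.7% and 43.5%, and for IMCD against OMCD 18.3%, 35% and 54.1%. Between other neighbours the share moved by over 10 percentage points in each pair except DCT against CTAL. It went from 94.3% to 80.4% and 49.2% in DTL1 against PTS3, from 90.4% to 67.7% and 51.6% in DTL2 against PTS3, from 9.3% to 38.2% and 52.7% in PTS1 against the glomerulus, from 19.5% to 36.1% and 42.5% in ATL against DTL3, and from 19.3% to 32.4% and 56.7% in MTAL against ATL. Members' calls that were lost under either rescaling are given beside the comparisons they belong to.

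Levels differed among the 15 groups for 8 of the 9 genes by limma's moderated F-test, and 93.9% of all tested genes passed that test. Ift88 did not pass (adjusted p = 0.125), but passed after median ratio rescaling (0.00149), after quantile normalization (0.00366) and with all samples taken as independent (0.000102). It also passed without DTL1 mouse 5 (0.00318), DTL3 mouse 2 (0.02), DTL1 mouse 3 (0.023) or ATL mouse 4 (0.0317). The span between the highest and lowest group mean was widest for Pkhd1, at 42.6-fold, followed by Pkd1 at 24.0-fold, Bicc1 at 15.3-fold, Glis3 at 14.1-fold and Cys1 at 13.7-fold. It was 9.57-fold for Glis2, 6.51-fold for Pkd2, 6.22-fold for Invs and 2.63-fold for Ift88. The highest mean lay in a thin limb for 6 genes, in the glomerulus for Pkd1 and Invs, and in PTS3 for Ift88. Of all 33793 tested genes, 57.9% had their highest mean in a thin limb, 20.7% in the glomerulus, 1.79% in PTS3 and 15.2% in thick limb, DCT, CNT or collecting duct, where none of the 9 peaked, so the members' counts in thin limb and glomerulus lay near the shares of all genes.

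**Figure D1:**
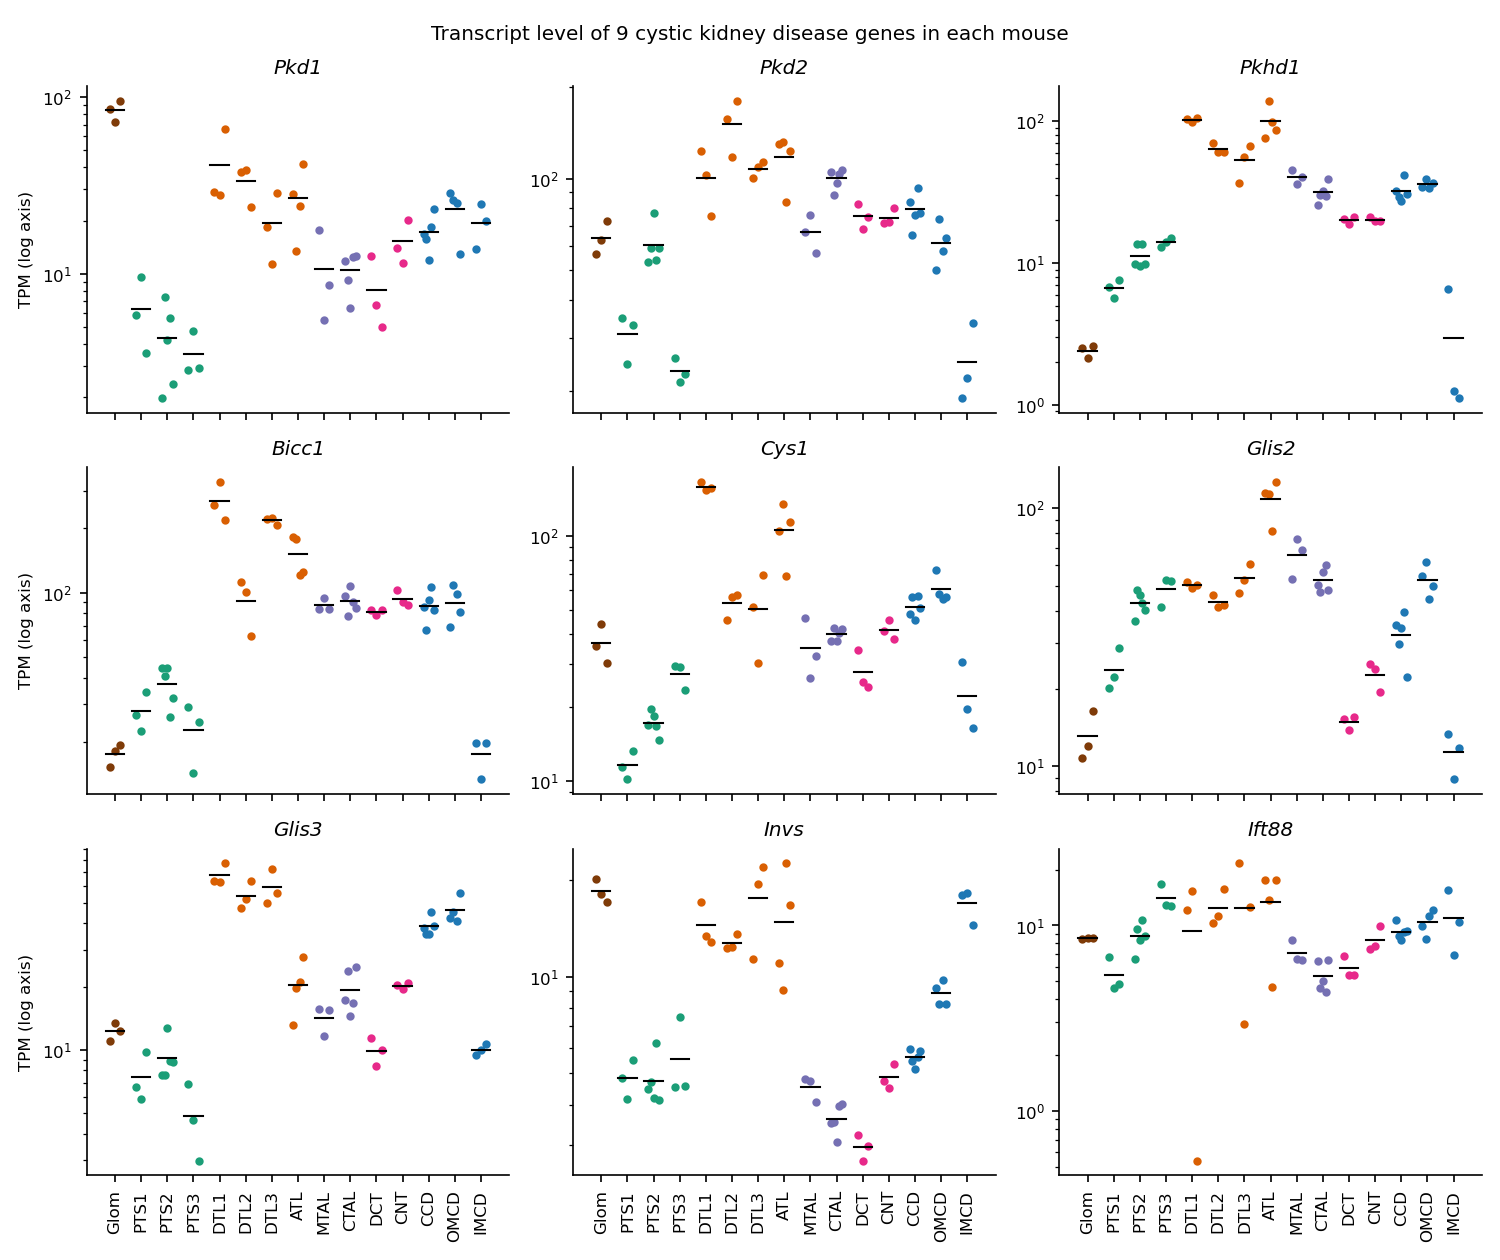
Level of each gene in every mouse, in TPM on a logarithmic axis, for the glomerulus (Glom) and 14 tubule segments in order along the nephron; each point is 1 mouse, each line the group mean, and colours mark regions. Pkhd1 runs from about 2 TPM in glomeruli to about 100 TPM in DTL1 and ATL and drops again in IMCD, while the Ift88 panel shows single low mice in DTL1, DTL3 and ATL.

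Against the proximal tubule, 7 genes were higher in the thin limbs, 6 in the thick limbs, 3 in DCT and CNT, and 3 in the collecting duct, and none was lower. These contrasts called 45.2%, 16.7%, 18.8% and 24.5% of all tested genes, and genes higher in the distal region made up 41.2% in thin limbs, 11.7% in thick limbs and 19.9% in collecting duct. The 7 genes higher in thin limbs were Pkhd1 (by 2.79 log2 units, SE 0.13), Glis3 (2.59, SE 0.11), Bicc1 (2.53, SE 0.11), Pkd1 (2.47, SE 0.20), Cys1 (2.13, SE 0.11), Pkd2 (1.70, SE 0.10) and Invs (1.38, SE 0.11). With the median of all genes taken off, these differences were 1.95, 1.75, 1.70, 1.63, 1.29, 0.87 and 0.54. After rescaling by median ratios, 4 of the 7 passed (Pkd1, Pkhd1, Bicc1 and Glis3), and Cys1 (0.995), Pkd2 (0.55) and Invs (0.34) did not. The Invs call was also lost with a pseudocount of 5 (0.96). Invs changed direction after quantile normalization, to -0.035, and Ift88, at 0.12 (SE 0.24) as deposited, was then called lower, at -1.21.

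In the thick limbs the 6 genes were Pkhd1 (1.71, SE 0.15), Bicc1 (1.64, SE 0.13), Pkd2 (1.20, SE 0.11), Glis3 (1.16, SE 0.13), Pkd1 (1.07, SE 0.23) and Cys1 (1.02, SE 0.13), and 2 of them, Pkhd1 and Bicc1, were called under either rescaling. The Pkd1 call was also lost without PTS1 mouse 3 (0.98) or MTAL mouse 1 (0.86), and the Cys1 call without PTS1 mouse 2 (0.993), PTS3 mouse 3 (0.986) or MTAL mouse 1 (0.91). With a pseudocount of 5 Pkd1 (0.68), Cys1 (0.87) and Glis3 (0.85) were not called, and Pkd1 was also lost with all samples taken as independent (0.977). In DCT and CNT the 3 were Bicc1 (1.61, SE 0.14), Pkd1 and Pkd2 (1.08, SE 0.12). Of these, Bicc1 was called after quantile normalization (1.07) and none after median ratio rescaling, where Bicc1 stood at 0.95, and Pkd1 was not called without DCT mouse 1 (0.98). With a pseudocount of 5 Pkd1 (0.75) and Pkd2 (0.988) were lost. Against the average tubule segment, the glomerulus was higher in Pkd1 and Invs (1.21, SE 0.15) and lower in Pkhd1, Bicc1 (by 2.02, SE 0.16) and Glis2 (by 1.5, SE 0.13). With the median of all genes taken off, these differences were 1.91 for Pkd1, 0.52 for Invs, -3.69 for Pkhd1, -2.71 for Bicc1 and -2.19 for Glis2. The Invs call was lost after median ratio rescaling (0.69), after quantile normalization (0.45) and with a pseudocount of 5 (0.87), and Glis3 was called lower after either rescaling (-1.18 and -1.62).

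The ATL mice 2 and 3, which held few receptor genes, allowed the thin limb comparison to be made without the libraries rich in them. Set alone against the proximal tubule, where 25.4% of tested genes were called and the median of all genes was 0.00, they also gave 7 calls, all higher: Pkhd1 by 3.23, Cys1 by 2.70, Bicc1 by 2.65, Pkd1 by 2.0, Pkd2 by 1.88, Glis2 by 1.62 and Glis3 by 1.15. Invs stood at 0.90 and was not called. This comparison was added after the data were seen, covers the ascending limb only, and rests on 2 thin limb mice.

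**Figure D2:**
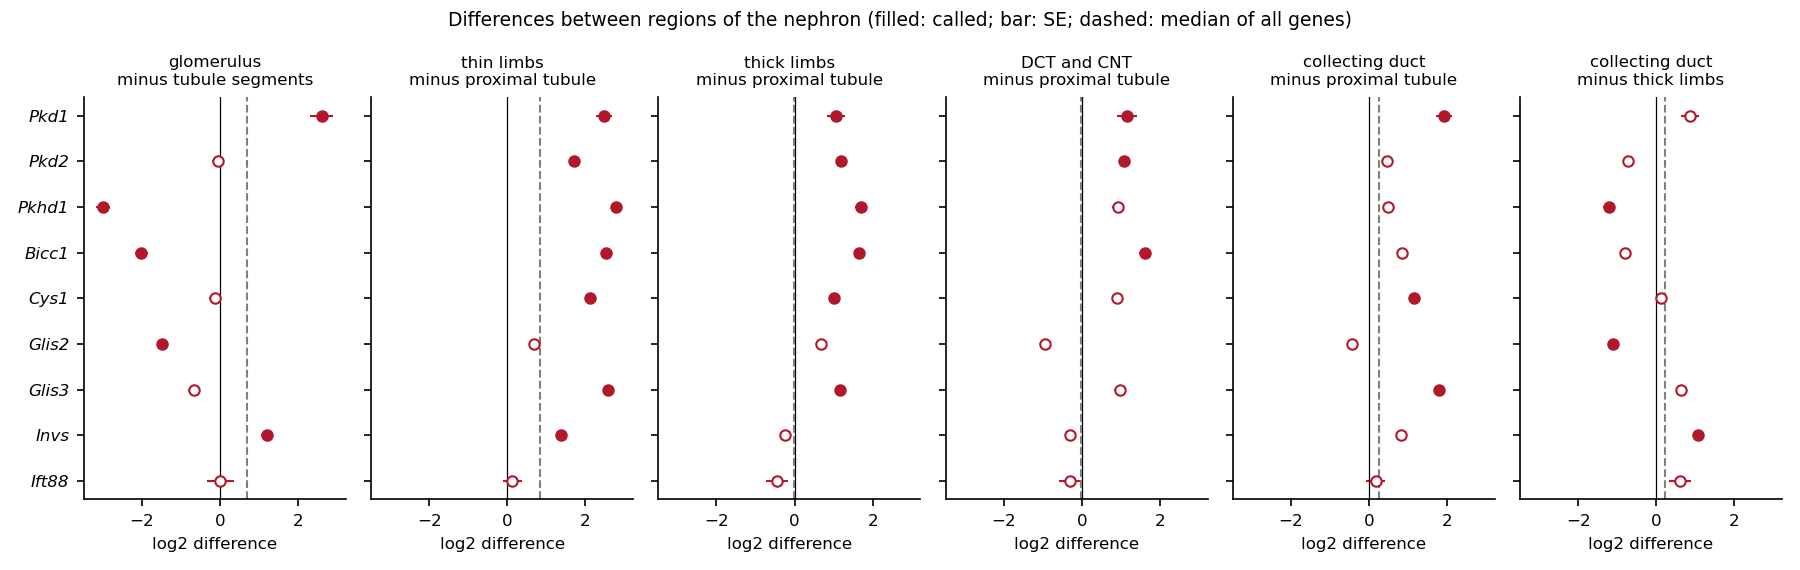
Log2 difference in TPM + 1 of each gene between regions of the nephron, 1 panel per contrast; points are limma estimates with their SE, filled where the gene was called, and the dashed line is the median over all tested genes. In thin limbs 7 filled points lie right of the dashed line at 0.84, while Glis2 and Ift88 are open; in the glomerulus panel Pkhd1 and Bicc1 lie farthest left and Pkd1 farthest right.

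Pkd1 (ENSMUSG00000032855) encodes polycystin-1, the large receptor-like protein mutated in most families with dominant polycystic disease. In the 3 glomerulus mice it measured 85.2, 72.5 and 95.3 TPM. No tubule mouse reached the lowest of these, the highest being DTL1 mouse 5 at 65.9 TPM. It was called higher in the glomerulus than in tubule segments on average, by 2.61 log2 units (SE 0.29, limma adjusted p = 1.97e-10), in a contrast that called 35.6% of all genes and 5 of the 9. It was also the single gene of the 9 that stood in 1 group above each other group by the required margin, with the glomerulus 1.12 log2 units (SE 0.40) over DTL1 (limma adjusted p = 0.022), a call made for 10.7% of all genes. The margin call was lost with a pseudocount of 0.1 (adjusted p = 0.0562) and when glomerulus mouse 3, DTL1 mouse 1 or DTL1 mouse 3 was left out (adjusted p = 0.0686, 0.0706 and 0.0774).

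The lowest Pkd1 levels were proximal. PTS3 held 2.83, 4.76 and 2.94 TPM, PTS2 held 1.97, 7.37, 4.19, 5.63 and 2.36 TPM, and PTS1 held 5.86, 9.60 and 3.55 TPM. These 3 segments overlapped one another, and every mouse of DTL1, DTL2, DTL3, ATL and collecting duct lay above all of them. In the collecting duct the means were 17.2 ± 4.16 TPM in CCD (SD, n = 5), 23.2 ± 7.0 in OMCD (SD, n = 4) and 19.5 ± 5.43 in IMCD (SD, n = 3), with ranges that overlapped. The collecting duct stood 1.92 log2 units above the proximal tubule (SE 0.21). That difference was 1.09 after rescaling by median ratios and 0.84, below the size required for a call, after quantile normalization. The Pkd1 calls in thick limbs (1.07) and in DCT and CNT (1.15) did not hold under either rescaling. By GENCODE M21, 693 of the 17415 exon bases of Pkd1 are also exon of Tsc2 on the opposite strand. Tsc2, the tuberous sclerosis gene, was likewise highest in glomeruli, at 114 ± 16.4 TPM, and lowest in PTS3, at 26.1 ± 1.19 TPM (SD, n = 3 each). The deposited values do not separate the strands in these shared bases, and their part in the Pkd1 levels was not tested.

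Pkd2 (ENSMUSG00000034462) encodes polycystin-2, the cation channel of the complex. Its highest levels were in DTL2, at 157, 117 and 180 TPM, and ATL, at 130, 132, 84.0 and 124 TPM, and these ranges overlapped. DTL3, DTL1 and CTAL followed with means of 108 ± 6.27, 100 ± 23.8 and 100.2 ± 7.52 TPM (SD, n = 3, 3 and 5). The lowest were PTS3, at 25.7, 21.5 and 22.7 TPM, and IMCD, at 19.0, 22.2 and 33.5 TPM, which also overlapped. Within the proximal tubule Pkd2 was higher in PTS2, at 53.3 to 77.3 TPM, than in PTS1, at 24.6 to 34.8 TPM, without overlap between the mice, but the difference of 0.96 log2 units fell short of the size required. PTS3 was lower than PTS2 by 1.34 log2 units (SE 0.17, limma adjusted p = 5.14e-08), the only call among the 9 genes between these segments, where 4.70% of all genes were called. After quantile normalization this difference was 0.86 in size and not called.

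Set against each other in the same mouse, the polycystin transcripts differed in their balance between groups. In log2(TPM + 1), Pkd1 exceeded Pkd2 in all 3 glomerulus mice, by 0.38 ± 0.21 (SD). In IMCD the levels were close, at -0.44 ± 0.44 (SD, n = 3), with mice between -0.76 and 0.06. Every other tubule mouse had more Pkd2 than Pkd1, the nearest to equal being DTL1 mouse 5 at -0.19. The gap was widest in PTS2, at -3.70 ± 0.57 (SD, n = 5), where Pkd1 averaged 4.30 TPM and Pkd2 60.6 TPM, and in CTAL, at -3.20 ± 0.32 (SD, n = 5). It narrowed from CCD, at -2.17 ± 0.33 (SD, n = 5), through OMCD, at -1.44 ± 0.58 (SD, n = 4), to IMCD, though single OMCD mice, at -2.24 to -0.86, overlapped CCD mice, at -2.59 to -1.72. These differences were described without a test.

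**Figure D3:**
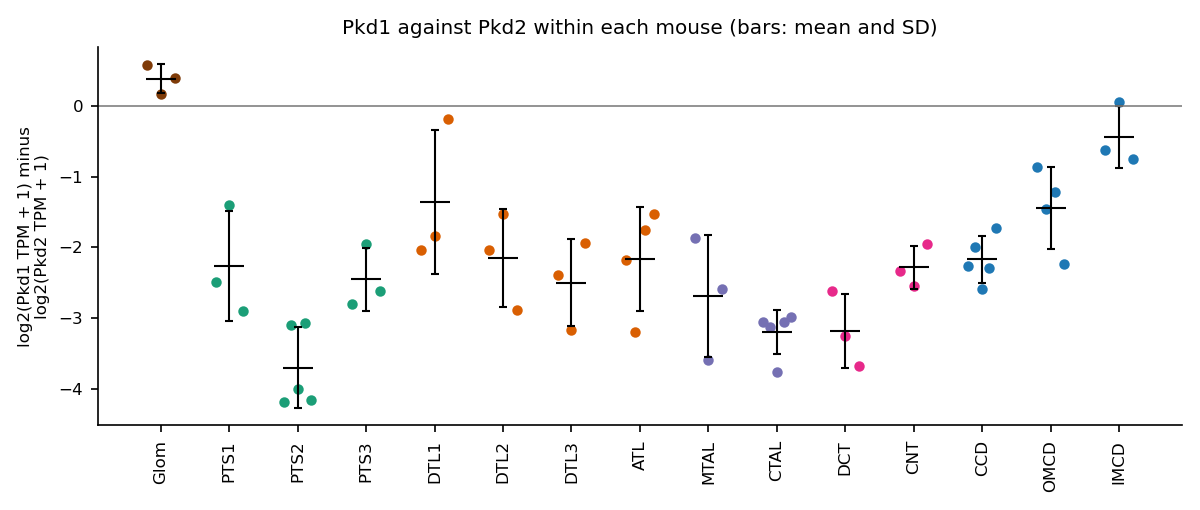
Difference between log2(Pkd1 TPM + 1) and log2(Pkd2 TPM + 1) within each mouse, by group along the nephron; points are mice, and black marks the group mean with its SD. The 3 glomerulus mice lie above 0, and all tubule mice but 1 IMCD mouse lie below it, with PTS2 lowest.

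Pkhd1 (ENSMUSG00000043760) encodes fibrocystin, the membrane protein lost in recessive polycystic disease. The 3 DTL1 mice held 104, 99.4 and 105 TPM and the ATL mice 76.5, 139, 98.5 and 86.8 TPM, and these groups overlapped. DTL2 (60.3 to 70.2 TPM), DTL3 (36.5 to 67.0) and MTAL (36.2 to 45.2) came next, each overlapping its neighbour in the order. OMCD, at 33.6 to 39.2 TPM, and CCD, at 27.4 to 41.6 TPM, could not be separated. Along the proximal tubule the means were 6.65 ± 0.97 TPM in PTS1 (SD, n = 3), 11.3 ± 2.14 in PTS2 (SD, n = 5) and 14.1 ± 0.98 in PTS3 (SD, n = 3). No step along it was called, at 0.67 and 0.30 log2 units, although each PTS1 mouse lay below each PTS2 mouse.

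The lowest Pkhd1 values were at the ends of the nephron. Glomeruli held 2.5, 2.15 and 2.60 TPM, lower than tubule segments by 3.00 log2 units (SE 0.18, limma adjusted p = 2.03e-18). IMCD mice held 6.59, 1.24 and 1.12 TPM, so that 1 mouse stood above the other 2, and its 3 separately sequenced pieces measured 6.29, 9.23 and 4.24 TPM. That mouse also had the lowest endothelial sum of the group, 21 TPM against 206 and 302, and 1406 TPM of the thin limb list against 2476 and 2693. IMCD was lower than OMCD by 3.54 log2 units (SE 0.24, limma adjusted p = 1.19e-16). The IMCD and glomerulus mice overlapped.

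Bicc1 (ENSMUSG00000014329) encodes an RNA-binding protein of the KH family whose loss gives polycystic kidneys in mice. It had the highest mean of the 9 genes in 8 groups (DTL1, DTL3, ATL, MTAL, DCT, CNT, CCD and OMCD), and its means ran from 268 ± 55.7 TPM in DTL1 to 17.5 ± 2.09 TPM in glomeruli (SD, n = 3 each). The DTL1 mice, at 257, 329 and 219 TPM, overlapped the DTL3 mice, at 221, 224 and 208 TPM. ATL followed at 183, 179, 121 and 125 TPM, below all DTL3 mice. DTL2, at 111, 100.3 and 62.7 TPM, was lower than DTL3 by 1.29 log2 units (SE 0.22, limma adjusted p = 1.72e-05), and Bicc1 was the only gene of the 9 called between these parts of the long descending limb, where 9.58% of all genes were called. From MTAL to OMCD the 6 group means lay between 81.1 and 93.6 TPM, with DCT mice, at 78.3 to 82.5 TPM, below all CNT mice, at 87.8 to 102.5 TPM. It then was lower in IMCD, at 19.8, 13.4 and 19.8 TPM, by 2.29 log2 units against OMCD (SE 0.21, limma adjusted p = 1.23e-12).

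Cys1 (ENSMUSG00000062563) encodes cystin, a lipid-anchored ciliary protein lost in the cpk mouse. All 3 DTL1 mice, at 166, 154 and 158 TPM, exceeded all ATL mice, at 105, 136, 68.8 and 114 TPM, but the margin of 0.62 log2 units (SE 0.20, limma adjusted p = 0.012) was under the size required for a call. ATL was higher than DTL3 by 1.09 log2 units (SE 0.20, limma adjusted p = 3.54e-05), and it was not called without DTL3 mouse 2 (0.77), without ATL mouse 3 (0.958) or with all samples taken as independent (0.956). In the proximal tubule Cys1 was at 11.6 ± 1.55 TPM in PTS1 (SD, n = 3), 17.3 ± 1.85 in PTS2 (SD, n = 5) and 27.4 ± 3.37 in PTS3 (SD, n = 3). No mouse of these segments overlapped the next, and neither step, at 0.53 and 0.64 log2 units, was large enough for a call. The collecting duct was higher than the proximal tubule by 1.15 log2 units (SE 0.11), but by 0.22 after median ratio rescaling (adjusted p = 0.137).

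Glis2 (ENSMUSG00000014303) encodes a zinc finger repressor mutated in a form of nephronophthisis. It peaked in ATL, where the mice held 114, 113, 81.6 and 125.8 TPM, all above the MTAL mice at 53.1, 75.9 and 69.0 TPM. The margin of ATL over MTAL was 0.71 log2 units (SE 0.17, limma adjusted p = 0.000626), under the size required. ATL stood 1.0 log2 units over DTL3 (SE 0.17), at the edge of the call rule, and fell under it with a pseudocount of 5, with a block on mouse number, with all samples taken as independent, and without any of DTL3 mouse 1, DTL3 mouse 2, ATL mouse 2, ATL mouse 3 and ATL mouse 6, at 0.90 to 1.0. DCT was lower than CTAL by 1.76 log2 units (SE 0.16, limma adjusted p = 3.44e-12), with DCT mice at 15.2, 13.8 and 15.5 TPM and CTAL mice at 47.4 to 60.3 TPM, and Glis2 was the only gene of the 9 called at this step, where 4.35% of all genes were called. Markers of cell types differed at this step too. The intercalated cell genes summed to 0.83 to 3.23 TPM in CTAL and 527 to 579 in DCT. The collecting duct genes summed to 7.88 to 12.6 TPM in CTAL and 514 to 601 in DCT. The thick limb genes summed to 40010 to 45349 TPM in CTAL and 1379 to 2245 in DCT. The part of these genes in the Glis2 difference was not tested. From DCT the means were 22.7 TPM in CNT, 32.2 in CCD and 52.6 in OMCD, with no step called, before 11.4 ± 2.26 TPM in IMCD (SD, n = 3). The last difference was 2.14 log2 units lower in IMCD (SE 0.17). After median ratio rescaling Glis2 was called lower than in the proximal tubule both in DCT and CNT, by 1.62, and in collecting duct, by 1.38, where the deposited values gave -0.95 and -0.43. By GENCODE M21, 455 of its 4373 exon bases are also exon of Pam16 on the opposite strand, whose median level over the samples was 58.5 TPM.

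Glis3 (ENSMUSG00000052942) encodes a related zinc finger activator whose loss gives cystic kidneys with neonatal diabetes. The descending limbs were highest, with DTL1 at 64.0, 63.1 and 77.2 TPM, DTL3 at 50.2, 72.3 and 55.7 TPM and DTL2 at 47.2, 52.1 and 63.3 TPM, all overlapping. OMCD, at 41.2 to 55.8 TPM, and CCD, at 35.7 to 45.3 TPM, overlapped each other and lay above all mice of ATL, CNT, CTAL and MTAL. DCT, IMCD and the proximal segments were lowest, with IMCD at 9.44, 10.0 and 10.6 TPM and PTS3 at 6.90, 4.66 and 2.98 TPM. Glis3 was lower in ATL than in DTL3 by 1.52 log2 units (SE 0.20, limma adjusted p = 8.41e-08), while Glis2 was higher there. It was called higher in collecting duct than in proximal tubule, by 1.80 log2 units (SE 0.11), a difference of 0.92 after median ratio rescaling and 0.85 after quantile normalization, both under the size required.

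Invs (ENSMUSG00000028344) encodes inversin, an ankyrin repeat protein of infantile nephronophthisis that acts in Wnt signalling and in left-right patterning. The highest levels were in glomeruli, at 20.1, 18.1 and 17.1 TPM, DTL3, at 11.3, 19.5 and 21.9 TPM, and IMCD, at 18.0, 18.2 and 14.5 TPM, and these groups overlapped. It was lowest in DCT, at 3.22, 2.68 and 2.99 TPM, and CTAL, at 3.07 to 4.01 TPM. From DCT on, the means were 4.86 ± 0.43 TPM in CNT (SD, n = 3), 5.61 ± 0.32 in CCD (SD, n = 5), 8.87 ± 0.77 in OMCD (SD, n = 4) and 16.9 ± 2.07 in IMCD (SD, n = 3), and CCD, OMCD and IMCD did not overlap. IMCD stood 0.85 log2 units over OMCD, under the size required, and 1.42 over CCD, which was called. After median ratio rescaling the difference from OMCD was called at 1.15, and after quantile normalization at 1.45. The differences of Invs from the proximal tubule in descending limbs depended on the scaling: DTL1 against PTS3 was 1.3 as deposited, 0.07 after median ratio rescaling and -0.84 after quantile normalization, and DTL2 against PTS3 was 1.11, 0.021 and -0.27. Both calls were lost with a pseudocount of 5 (0.90 and 0.75), and the latter also without PTS3 mouse 1 or mouse 3 (0.996 and 0.997). By GENCODE M21, 226 of the 11431 exon bases of Invs are also exon of Tex10 on the opposite strand, whose median level over the samples was 19.3 TPM.

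Ift88 (ENSMUSG00000040040) encodes a core subunit of intraflagellar transport complex B, and its reduction in the orpk mouse gives cysts with short cilia. Means ran from 14.1 ± 2.24 TPM in PTS3 (SD, n = 3) to 5.38 ± 1.01 TPM in CTAL (SD, n = 5), and each group in the order overlapped the next. Several groups held a single low mouse: DTL1 mouse 5 at 0.54 TPM against 12.1 and 15.3, DTL3 mouse 2 at 2.96 against 21.6 and 12.6, and ATL mouse 4 at 4.64 against 13.7 to 17.7. Of these, DTL1 mouse 5 also had the lowest sum of thin limb genes in its group, 4588 TPM against 9904 and 11192. Its sum of receptor genes was the highest there, 4286 TPM against 2689 and 2714. Its number of receptor genes at 1 TPM was the lowest, 704 against 860 and 861. ATL mouse 4 had the lowest sum of thin limb genes in ATL, 12781 TPM against 16415 to 20174, and the part of these sums in the Ift88 values was not tested. DTL1 was called lower than PTS3 by 1.11 log2 units (SE 0.48, limma adjusted p = 0.031), and without DTL1 mouse 5 the difference was -0.03 (adjusted p = 0.969). The call therefore rested on that mouse, and it was also lost without PTS3 mouse 1 (adjusted p = 0.0879). With the block on mouse number the adjusted p was 0.0514, and the difference was -0.61 with a pseudocount of 5 and -0.80 with all samples taken as independent, neither of which was called.

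Along the nephron, steps between neighbouring segments gave 35 calls of 126 tests over the 9 genes (27.8%), against 19.2% of the tests over all genes, most at 3 places. From PTS3 into the thin limbs, 8 genes were called in DTL1 (7 higher, and Ift88 lower), in a contrast that called 65.5% of all genes, and 6 in DTL2, all higher, with 40.0% of all genes called. After median ratio rescaling Pkd2 (0.69) and Invs were not called in DTL1, and Pkhd1 (0.92), Bicc1 (0.79) and Invs were not called in DTL2. Glis2 was then called lower in both (-1.3 and -1.37), and Ift88 in DTL1 and, at -1.34, in DTL2, so that 5 of 7 calls in DTL1 and 3 of 5 in DTL2 were higher. After quantile normalization Ift88 in DTL2 stood at -1.4 and was also called lower. The largest steps into DTL1 were those of Glis3 (3.62), Bicc1 (3.55), Pkd1 (3.14), Pkhd1 (2.80) and Cys1 (2.5), which stood at 2.28, 2.22, 1.80, 1.46 and 1.17 with the median of all genes taken off, where Pkd2 stood at 0.71, Invs at -0.034 and Ift88 at -2.45. From the glomerulus to PTS1, 5 were called, with Pkhd1 higher and Pkd1, Invs, Cys1 and Pkd2 lower, where 51.9% of all genes were called. Of these, Pkd1 and Pkhd1 were called under either rescaling, but the Pkhd1 difference of 1.17 was 0.65, and not called, with a pseudocount of 5. Pkd2, at -1.04, turned to 0.21 after median ratio rescaling, stood at -0.073 after quantile normalization, and was not called with a pseudocount of 5 (-0.955), without glomerulus mouse 3 (-0.952) or without PTS1 mouse 2 (-0.88). Cys1 (-0.35 and -0.29) and Invs (-0.58 and -0.25) were called under neither rescaling, while Bicc1 and Glis2 were then called higher in PTS1. From DTL3 to ATL, where 14.6% of all genes were called, the 3 were Cys1, Glis2 and Glis3, and from ATL to MTAL, with 28.1%, Cys1, Invs, Pkd1 and Pkhd1 were lower. In the latter step Cys1 was called under both rescalings, Pkhd1 was lost after median ratio rescaling (-0.85), Invs after quantile normalization (-0.90) and Pkd1 after both (-0.92 and -0.83) and without MTAL mouse 2 (-0.97). In ATL against DTL3, 4 members were called after either rescaling, 3 of them higher in ATL.

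None of the 9 was called between PTS1 and PTS2 (9.57% of all genes called), MTAL and CTAL (3.15%), DCT and CNT (5.22%), CNT and CCD (1.12%) or CCD and OMCD (12.1%). At these steps limma's unadjusted p was under 0.05 for 5, 2, 5, 3 and 3 of the 9 genes and for 26.3%, 13.9%, 18%, 7% and 39.7% of all genes, with the members' differences all under the size required. At the last step, from OMCD to IMCD, 6 genes were lower: Pkhd1, Bicc1, Glis2, Glis3, Cys1 (by 1.49, SE 0.20) and Pkd2 (by 1.32, SE 0.18). This contrast called 18.6% of all genes, and 15.2% were called lower in IMCD. With the median of all genes taken off, the 6 differences were -3.22, -1.97, -1.82, -1.82, -1.18 and -1.0. Pkd1 was at -0.32 and Ift88 at 0.00, and neither was called. Pkd2 was not called after median ratio rescaling (-0.99), and the other 5 were called under both rescalings. Markers of other cell types moved with this step: the intercalated cell genes Atp6v1g3, Slc4a1 and Slc26a4 summed to 1754 to 2413 TPM in OMCD, 2637 to 3678 in CCD and 0.137 to 3.12 in IMCD. The endothelial genes summed to 364 to 486 TPM in OMCD, 123 to 211 in CCD and 21 to 302 in IMCD. The thin limb list summed to 4.39 to 15.4 TPM in OMCD and 1406 to 2693 in IMCD, nearly all of it Slc14a2, a urea transporter gene also used by IMCD cells (1401 to 2681 TPM). Their part in the differences was not tested. OMCD libraries held more receptor genes than IMCD libraries, 69 to 239 against 3 to 22. Against CCD, whose libraries held 1 each, the same 6 genes were lower in IMCD, with Pkhd1 at -3.37, Bicc1 at -2.25, Glis3 at -1.90, Pkd2 at -1.69, Glis2 at -1.43 and Cys1 at -1.26, Invs was higher, 16.3% of all genes were called, and the median of all genes was 0.04. That comparison was added after the data were seen.

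For the collecting duct as a whole, the 3 genes called higher than in proximal tubule were Pkd1, Glis3 and Cys1, at 1.66, 1.54 and 0.89 with the median of all genes taken off. After median ratio rescaling Pkd1 alone of them was called, and after quantile normalization none was, with Cys1 at 0.39. With CCD alone in place of the 3 segments, where 23.5% of all genes were called, 6 were higher: Glis3 by 2.36, Pkd1 by 1.79, Bicc1 by 1.59, Pkhd1 by 1.56, Cys1 by 1.49 and Pkd2 by 1.15. Against thick limbs, a contrast that called 11.6% of all genes, the collecting duct was lower in Pkhd1 (by 1.21, SE 0.15) and Glis2 (by 1.11, SE 0.10) and higher in Invs (1.07, SE 0.12), and the Invs difference was 0.74 after median ratio rescaling and 0.56 after quantile normalization, both under the size required. With a pseudocount of 5 the Pkhd1 (-0.84) and Glis2 (-0.97) calls were lost too, and after median ratio rescaling Bicc1 (-1.18) and Pkd2 (-1.12) were also called lower.

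Across the 15 group means of log2(TPM + 1), the pair most alike was Pkhd1 and Bicc1, with a Pearson r of 0.92, followed by Pkhd1 and Glis2 at 0.80 and Pkd2 and Bicc1 at 0.79. Pkd1 was most like Invs, at 0.77, and stood at 0.48 with Pkd2 and 0.14 with Pkhd1. The lowest was Bicc1 with Ift88, at -0.16. The points share libraries and their background, and no p is given. Among 12058 other genes with a mean of at least 10 TPM in some group, those most like each member over the group means were Lpcat1, Map4 and Epn2 for Pkd1 (r of 0.98, 0.97 and 0.97), Kifc3, Tarsl2 and Atp11b for Pkd2 (0.93, 0.92 and 0.92), Proser3, Trip6 and Gnpda2 for Cys1 (0.94, 0.89 and 0.89), Slc6a17, Wdr34 and Dzip1l for Glis2 (0.83 for each) and Platr21, Map3k21 and Fem1c for Glis3 (0.97, 0.93 and 0.92). Cobl, which encodes an actin nucleator, was nearest to both Pkhd1 (0.94) and Bicc1 (0.92). Bicc1 and Ctps2 came next for Pkhd1, at 0.92 and 0.89, and Ccdc149 and Pkhd1 for Bicc1, at 0.92 each. For Invs they were Tns3, Sbf1 and Zfand3 (0.97, 0.96 and 0.96). For Ift88 they were Pole4, Gdpd3 and Tmem183a, at 0.87, 0.84 and 0.78, which were 0.54, 0.46 and 0.35 over the 53 combinations of mouse and segment.

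The other genes of these pathways are given from lists, without the 9. Every listed gene that could be tested passed the F-test among the 15 groups, as 93.9% of all genes did. The counts below stand against 41.2% of all tested genes called higher in thin limbs and 19.9% in collecting duct. With the filter on low values at 5 TPM, the median of all genes was 1.20 in thin limbs and 0.64 in collecting duct. The list medians below should be read beside these values too, and no rescaled values are given for the lists. Of the 6 other polycystin family genes, 1 was higher in thin limbs than in proximal tubule and 0 in collecting duct, and their median differences, 0.61 and 0.09, lay below those of all genes, 0.84 and 0.26. None averaged over 3.65 TPM in any group, a level that Pkd1l2, a polycystin-1-like gene, had in ATL. Of 10 other genes of dominant polycystic kidney and liver disease, most of which act on membrane proteins in the endoplasmic reticulum, 2 were higher in thin limbs: Lrp5, a Wnt co-receptor of the cell surface (1.42), and Alg9, a mannosyltransferase (1.3). In collecting duct 1 was higher, again Alg9 (1.23, SE 0.13). Ganab, the glucosidase subunit of dominant disease, was highest in glomeruli, at 165 ± 9.08 TPM (SD, n = 3), where Pkd1 also peaked, and stood at 0.86 in collecting duct.

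Of 20 other nephronophthisis genes, 14 were higher in thin limbs (41.2% of all genes) and 10 in collecting duct (19.9% of all genes), and 0 were lower in either, with medians of 1.29 and 0.99. Nek8, a kinase that acts with inversin, was higher in collecting duct by 2.03 log2 units (SE 0.10). Over all groups its lowest mean was 7.33 ± 0.67 TPM in PTS1 (SD, n = 3) and its highest 71.7 ± 13.2 TPM in ATL (SD, n = 4). Slc41a1, a magnesium transporter, was higher in collecting duct by 2.0 (SE 0.18). Among 16 other subunits of intraflagellar transport complex B, 5 were higher in thin limbs and 4 in collecting duct, shares below and near those of all genes (41.2% and 19.9%), with medians of 0.87 and 0.58. Ift172 was higher in collecting duct by 1.83 (SE 0.14) and Ift80 by 1.76 (SE 0.11), where Ift88 of the same complex stood at 0.17 (SE 0.25). Of 11 genes of complex A and the ciliary motors, 10 were higher in thin limbs and 6 in collecting duct, against 41.2% and 19.9% of all genes, with medians of 1.42 and 1.21, among them the kinesin-2 subunits Kifap3 (1.80, SE 0.08) and Kif3b (1.68, SE 0.14). Ttc21b and Wdr19, which encode complex A subunits, are in this list and the nephronophthisis list, and both were called higher in both regions, so the counts share these 2 genes.

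Of 20 ciliary membrane and gate genes, 14 were higher in thin limbs and 7 in collecting duct, against the same 41.2% and 19.9%, with medians of 1.10 and 0.68, led in collecting duct by Ahi1 (2.29, SE 0.11) and Mks1 (2.06, SE 0.23), both of the ciliary transition zone. Among transcription factors, Glis1, a relative of Glis2 and Glis3, was lower in collecting duct than in proximal tubule (-3.36, SE 0.18), and was highest in PTS3 at 21.6 ± 2.57 TPM (SD, n = 3), the segment where Glis3 was lowest. Rfx3 and Rfx2, regulators of ciliary genes, were higher in collecting duct by 1.45 (SE 0.13) and 1.43 (SE 0.14). Foxj1, the regulator of motile cilia, averaged at most 0.61 TPM in any group. Of 5 growth-control genes, 2 were higher in thin limbs, a share near that of all genes (41.2%), and 3 in collecting duct (19.9% of all genes): Tsc1, Vhl and Tsc2, by 1.45, 1.33 and 1.26.

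**Figure D4:**
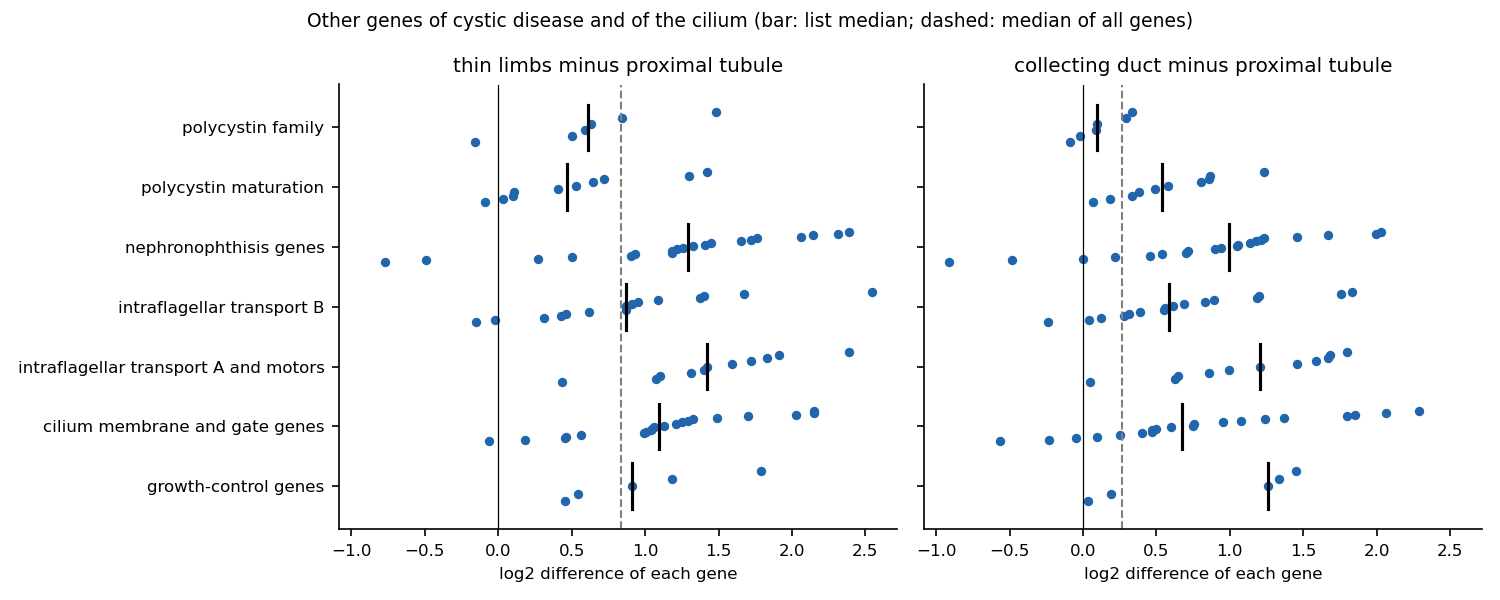
Log2 difference of each other listed gene in thin limbs (left) and collecting duct (right) against proximal tubule; points are genes, the black bar is the median of a list and the dashed line the median of all tested genes. The lists of complex A with motors and of nephronophthisis genes have medians right of the dashed line in both panels, and the polycystin family has its median left of it. With the filter at 5 TPM the median of all genes, not drawn, was 1.20 (left) and 0.64 (right). Transcription factors are not plotted.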

How the data were processed

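RNA was reverse transcribed with SMARTer V4 and made into Nextera XT libraries, per the labels' protocols. The authors deposited TPM values per gene; STAR 2.5.4a and RSEM 1.3.0 are named in the submitters' processing notes, and the build and annotation are not given in the sources used here. Values were rounded to 2 decimals or, in glomeruli, 1. Their depth is unknown, so no counting interval is given, and the columns of the authors' group means (14) and 3 single-cell samples were not used.

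Pieces of 1 mouse were averaged as log2(TPM + 1), except that printed levels are means of TPM. Genes with at least 1 TPM in at least 3 mice, 33793 of 54532, were fitted over all 15 groups with limma 3.58.1 (R 4.3.3, trended variance), and p-values were adjusted by Benjamini-Hochberg over all of them. The p of the single-group margin is the largest one-sided p of the highest group against each of the other groups. Its size is the difference between the highest group and the next. One PTS2 column carries mouse number 2 and a piece letter that matches no sample title, and it was used as a PTS2 replicate with no number. Mouse numbers were not taken to pair samples, and the labels do not say whether a number names the same animal across segments. Deviations from group means had a median r of 2e-04 for same-numbered samples, with 19 of 290 pairs over 0.1. For differently numbered ones it was 4e-04, with 31 of 968. The share of pairs over 0.1 was thus higher for same-numbered samples, and results with a block on mouse number are given below. The labels do not say whether mice of a segment came from separate days, so p-values measure the spread between these mice. That spread was taken as 1 moderated value per gene, shared by all 15 groups. Groups differed in spread: the SD of Ift88 in log2(TPM + 1) was 0.01 in glomeruli and 1.88 in DTL1.

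On simulated data with 200 genes changed by 2 log2 units, 100% were recovered in collecting duct against proximal tubule and 99.5% by the F-test. Those values were drawn independently around a common level for each gene, with equal spread in all groups. The changed genes were taken from those with a small residual spread. The simulation held no shifts or background between groups, so it does not give the recovery in the real data. The members and lists were chosen with earlier results of these data known, and 3 comparisons were added after the data were seen. Genes named beside the members were the 3 most alike by Pearson r, passing over predicted, ribosomal and mitochondrial genes, and from each list up to 2 called in each direction with the largest difference in collecting duct against proximal tubule. Ganab, Foxj1, Pkd1l2 and Tsc2 were named after their values were seen. Some listed genes are not reported here, and of the transcription factors only single genes are given. Exon overlaps came from GENCODE M21. Figures used Python 3.11.15 and matplotlib 3.10.9.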

Additional observations from a re-analysis of the deposited data

Results flagged for a closer look

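Of 45 combinations of a gene and a group of 4 or 5 mice, 5 held a mouse far from the others by Dixon's criterion, which chance meets in about 1 in 20. Pkd1 measured 12.87 TPM in OMCD mouse 4, against 25.16 to 28.45 in the other OMCD mice. Pkd2 measured 83.99 TPM in ATL mouse 4, against 123.5 to 131.8, and 77.28 TPM in PTS2 mouse 4, against 53.3 to 59.28. Glis3 measured 12.69 TPM in PTS2 mouse 4, against 7.62 to 8.82, and Invs 6.2 TPM in PTS2 mouse 5, against 4.13 to 4.69. Groups of 3 mice, among them the DTL1 and DTL3 groups with low Ift88 values, were not examined in this way.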

How the results depend on the processing

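Over the members' calls, leaving out 1 mouse kept 3316 and ended 23; the other alternatives kept 514, ended 65 and reversed 4. Reversed were Invs after quantile normalization, in thin limbs against proximal tubule (-0.035), DTL1 against PTS3 (-0.84) and DTL2 against PTS3 (-0.27), and Pkd2 in PTS1 against the glomerulus after median ratio rescaling (0.21). The cause was not tested.

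Member counts moved to 4 in thin limbs and 1 in DCT and CNT (Glis2, lower) after median ratio rescaling, to 2 in thick limbs after either rescaling, and to 1 in collecting duct against proximal tubule after quantile normalization, which is Glis2, lower. By the F-test 9 passed after either rescaling. A pseudocount of 5 gave 3 in thick limbs, 1 in DCT and CNT and 0 in collecting duct against thick limbs; 0.1 gave 0 for the single-group margin. CCD alone gave 6.

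Genes called with pseudocounts of 0.1 and 5 were 21193 and 4215 in glomerulus, 25551 and 6310 in thin limbs, 14167 and 4972 in collecting duct against proximal tubule, 10400 and 2090 against thick limbs, 11665 and 2826 in IMCD against OMCD, and 137462 and 40123 over all neighbours. A pseudocount of 5 gave 3234 in thick limbs, 3761 in DCT and CNT and 1846 for the margin. Quantile normalization gave 5929 in glomerulus, 6066 in thin limbs, 5076 in collecting duct and 49640 over neighbours; median ratios gave 9884 and ATL mice 2 and 3 gave 8587 in thin limbs. A filter at 5 TPM left 17910 by the F-test. With a pseudocount of 5, Pkd1 minus Pkd2 was -2.87 in PTS2, -1.74 in PTS3 and -2.79 in CTAL. Over mice instead of groups, 16 of 27 most-alike genes were the same.

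Leaving out 1 mouse gave 30799 to 31919 genes and 8 to 9 members by the F-test, and 3082 to 4824 genes and 0 to 1 members for the margin. Ranges were 10077 to 13797 genes and 5 members in glomerulus, 14703 to 15872 and 7 in thin limbs, 5598 to 5707 and 4 to 6 in thick limbs, 6263 to 6425 and 2 to 4 in DCT and CNT, and 8184 to 8454 and 3 in collecting duct. They were 3866 to 4048 and 3 to 4 against thick limbs, 5658 to 6540 and 6 in IMCD, and 88285 to 94183 and 33 to 36 over neighbours. A block on mouse number gave 7 members and 14765 genes in thin limbs, 8 by the F-test, 4 in DCT and CNT and 33 over neighbours, ending the calls of Glis2 in ATL against DTL3 (0.90) and Ift88 in DTL1 against PTS3. The depth behind the TPM values is unknown.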
